A study of Ovis aries with 15 samples.

Results

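A set of 8 imprinted genes tied to fetal growth was followed in the liver of fetal sheep (Ovis aries) through the last part of gestation. They are PLAGL1, MEST, DLK1, PEG3, PEG10, CDKN1C, GRB10 and SGCE, taken by gene name from a deposited table of 31411 genes, in which all 8 were present. The study sampled liver at gestational days (GD) 100, 124 and 144, with 4, 5 and 6 poly(A) RNA libraries. The labels give no strain, breed, treatment or sex for any stage. They also do not say whether each library is a fetus of its own, so the p-values rest on the spread among these libraries, which may be technical. All 8 genes passed the filter on low counts, which left 16977 genes for testing.

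Imprinted genes are expressed mainly from 1 parental copy, and many of them act on growth before birth. PLAGL1 encodes a zinc finger transcription factor that is placed upstream of other imprinted genes in a network described in mouse, in which MEST, DLK1, GRB10, CDKN1C and PEG3 also take part. Several of these genes are strongly expressed in fetal tissues and are lowered as growth slows, and DLK1 is a surface marker of the hepatoblast, the fetal precursor of hepatocytes. The table gives 1 value a gene and does not separate the parental alleles, so imprinting itself was not measured, and no sequence of these genes was analysed here.

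Libraries held 24215612 to 38247295 estimated counts. Levels are counts per 1000000 (CPM) scaled by the trimmed mean of M values (TMM), and a floor of 3 counts lay at 0.0796 to 0.128 CPM. The summed level of 12 hepatocyte markers was 30489 to 102060 CPM at GD100, 119550 to 147320 CPM at GD124 and 99289 to 141060 CPM at GD144. No marker of this list was at 0 in any library. The 13 erythroid markers summed to 4618 to 11242 CPM at GD100, 1776 to 3587 CPM at GD124 and 106.9 to 850.5 CPM at GD144. The GD100 libraries differed among themselves. In replicates 2 and 3 the erythroid sums were 11242 and 8996.5 CPM and the hepatocyte sums 30489 and 34782 CPM, against 5024 and 4618 CPM and 76796 and 102060.0 CPM in replicates 1 and 4. Replicates 2 to 4 of GD100 also carried fractional counts in 10.6 to 10.8% of genes, against 5.09 to 6.2% in the other libraries. The sample codes of the labels differ by stage, so a batch that follows them cannot be told apart from the stage. In whole tissue, fewer cells of a type and less RNA per cell cannot be told apart.

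**Figure D1:**
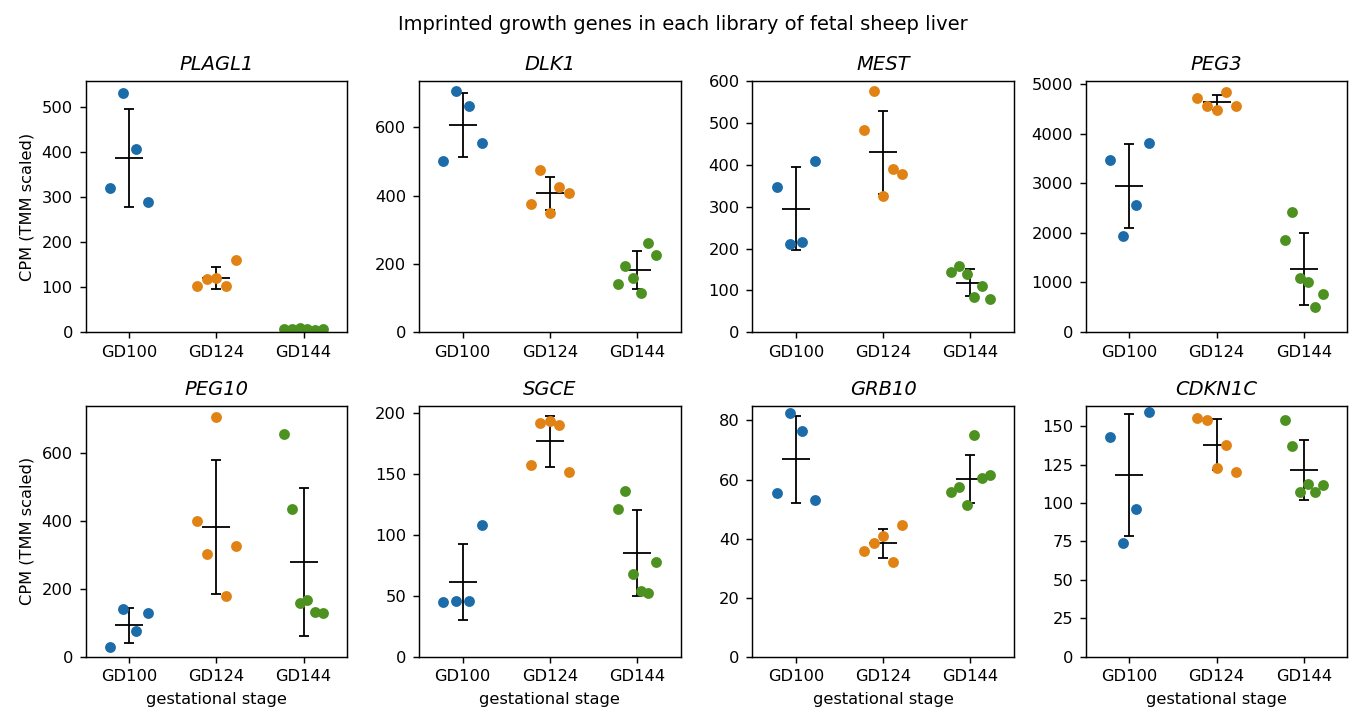
Level of each of the 8 genes (CPM, TMM scaled, linear axis from 0) in each library, by gestational stage, with points in the order of the replicate numbers. Bars mark the stage mean and the SD of 4, 5 and 6 libraries. PLAGL1 stood at 288 to 532 CPM at GD100 and at 5.34 to 8.52 CPM at GD144, whereas CDKN1C overlapped between all stages.

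The 8 genes did not follow 1 course. PLAGL1 and DLK1 fell in both intervals, MEST and PEG3 fell only after GD124 by the test, SGCE rose and then fell, GRB10 fell and then rose, PEG10 rose in the first interval, and CDKN1C passed no test. Of all tested genes 6.92% were called lower in both intervals, 4.01% higher in both, 14.8% in the second interval only and 21.4% in the first only. Any difference between stages was called for 7 of the 8 at an edgeR adjusted p under 0.05, beside 56.3% of all tested genes. Between GD100 and GD124, 5 of the 8 were called, 2 higher and 3 lower, where 34% of all genes were called. This count was 3 without GD100 replicate 3, a fit in which 4169 genes were called in all, against 5773 with all 15 libraries. Between GD124 and GD144, 6 were called, 1 higher and 5 lower, where 27.5% of all genes were called. Over the whole span, 5 were called, 1 higher and 4 lower, beside 55% of all genes, a share near that of the members. The members' median log2 change was 0.38, -1.11 and -0.68 in these 3 comparisons, against 0.015, -0.0098 and 0.03 for all tested genes. Libraries of both stages did not overlap for 6, 6 and 3 of the 8 genes, beside 24.3, 18.8 and 40% of all genes. In the first interval 3 of these were higher and 3 lower (11.6 and 12.6% of all genes), in the second 1 and 5 (7.81 and 11%), and over the whole span all 3 were lower (19.2% of all genes were higher and 20.8% lower without overlap).

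**Figure D2:**
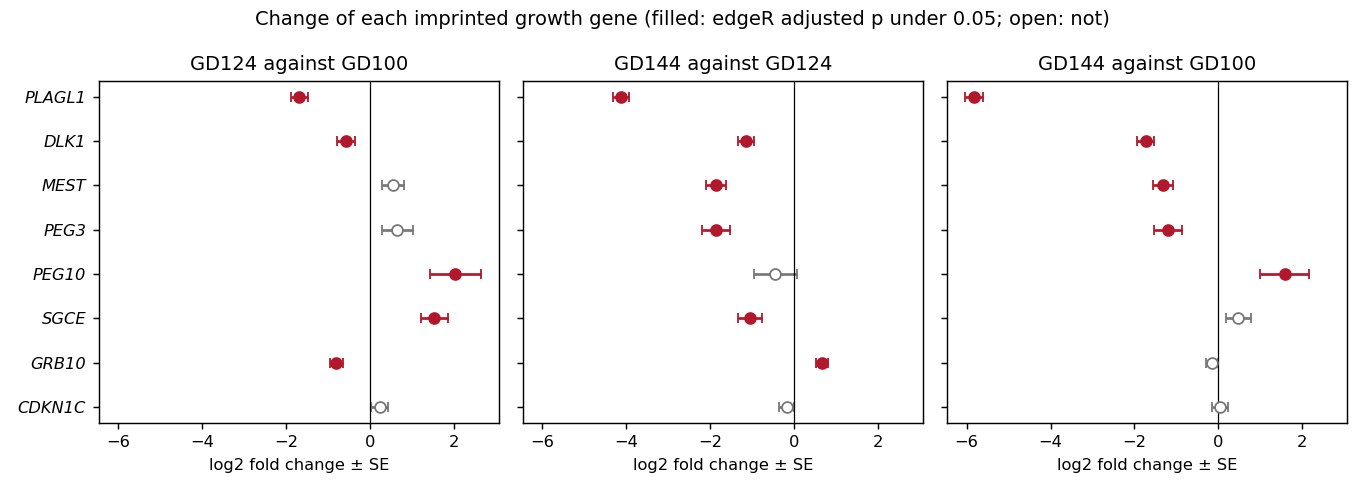
Log2 fold change of each of the 8 genes in the 3 comparisons between stages, with standard errors. Filled points passed an edgeR adjusted p of 0.05, which 5, 6 and 5 genes did from left to right. PLAGL1 had the change farthest from 0 among the 8 in the middle and right panels.

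PLAGL1, the transcription factor gene of the network, stood at 321, 532, 407 and 288 CPM in GD100 replicates 1 to 4. At GD124 it was at 102, 117, 119, 103 and 160.3 CPM, and at GD144 the lowest, median and highest libraries were at 5.34, 6.59 and 8.52 CPM. Every library of a later stage lay below every library of an earlier stage. The fall from GD100 to GD124 was 3.22-fold (log2 -1.69 ± 0.20 SE, edgeR adjusted p = 9.17e-05), and that from GD124 to GD144 was 17.5-fold (log2 -4.13 ± 0.20, edgeR adjusted p = 2.1e-09). Over the whole span the fall was 56.3-fold. The later change was more negative than the earlier one by 2.44 ± 0.31 on the log2 scale (edgeR adjusted p = 0.000868), a difference called for 5.9% of all genes. The erythroid marker sum fell over the same stages. A sum of 17 cell cycle genes fell as well, at 1633 to 3748, 677 to 1393 and 82.6 to 385 CPM in the 3 stages. It too was highest in replicates 2 and 3 of GD100 and in replicate 3 of GD144. Within GD100, replicates 2 and 3 were highest in both PLAGL1 and the erythroid sum. Within GD144 replicate 3 was highest in both, at 8.52 CPM of PLAGL1 and 850.5 CPM of the sum. Replicate 4 of GD144 was close to it in PLAGL1, at 8.1 CPM, with an erythroid sum of 154.4 CPM. Across the GD144 libraries other than replicate 3, PLAGL1 ran from 5.34 to 8.1 CPM and the erythroid sum from 106.9 to 154.4 CPM. The part of erythroid cells or of cell division in the PLAGL1 values was not tested. PLAGL1 overlaps ZC2HC1B in the ARS-UI_Ramb_v3.0 annotation and its counts in GD100 replicates 2 to 4 were fractional. ZC2HC1B itself stood at 2.54 ± 1.22 CPM (SD, n = 4), 2.15 ± 0.673 CPM (n = 5) and 1.64 ± 0.448 CPM (n = 6) in the 3 stages.

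PEG3, a zinc finger gene that is known from studies of growth and maternal care in mouse, was at 3473, 1939, 2559.9 and 3808 CPM in GD100 replicates 1 to 4. At GD124 it held within a narrow range, at 4712, 4562, 4473, 4841 and 4553 CPM, a coefficient of variation of 3.17%. At GD144 it ran from 512 through a median of 1051 to 2428 CPM, a coefficient of variation of 56.7%. All GD124 libraries lay above all GD100 libraries, yet the change did not pass the test (log2 0.65 ± 0.36, edgeR adjusted p = 0.174). The fall from GD124 to GD144 passed (log2 -1.86 ± 0.33, edgeR adjusted p = 0.000544), and all libraries of GD144 lay below those of GD124. The change over the whole span also passed (log2 -1.21 ± 0.34, edgeR adjusted p = 0.00614), although libraries of GD100 and GD144 overlapped. The later change minus the earlier one was -2.51 ± 0.57 (edgeR adjusted p = 0.0187). With replicate 1 alone for GD100 this difference was -2.26 (edgeR adjusted p = 0.128).

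DLK1, a membrane protein gene of the Delta family whose product is also shed as a soluble factor, was at 502, 706, 661 and 555 CPM in GD100 replicates 1 to 4. It was at 375, 474, 349, 426 and 407 CPM at GD124 and at 113, 177 and 260.4 CPM in the lowest, median and highest library of GD144. As for PLAGL1, the libraries of the 3 stages did not overlap. The fall was log2 -1.15 ± 0.19 between GD124 and GD144 (edgeR adjusted p = 0.000369) and log2 -1.73 ± 0.20 over the whole span (edgeR adjusted p = 2.81e-06). In the first interval it was log2 -0.58 ± 0.21 with an edgeR adjusted p of 0.0446. That call was lost without GD100 replicate 2 or 3 (adjusted p = 0.104 and 0.102), without GD124 replicate 1, 3, 4 or 5 (adjusted p = 0.0861, 0.0948, 0.066 and 0.0665) and without GD144 replicate 2 (adjusted p = 0.0546). With all 15 libraries it was also lost in limma-voom (adjusted p = 0.0577) and in edgeR with no filter beyond a count above 0 (adjusted p = 0.0589). The log2 change was -0.31 with replicate 1 alone for GD100. The 2 intervals were not shown to differ for DLK1 (difference -0.58 ± 0.35, edgeR adjusted p = 0.329). The 13 hepatoblast markers, DLK1 among them, did not move one way. In the first interval and again over the whole span 4 rose, 3 fell and 6 were not called, and in the second interval 3 fell and 10 were not called. Of all tested genes 34% were called in the first interval, 27.5% in the second and 55% over the whole span. DLK1, AFP and LIN28B fell in each comparison, and GPC3, KRT8, MET and CDH1 were those that rose; the markers other than DLK1 are named after their values were seen.

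GRB10, an adaptor that binds the insulin and insulin-like growth factor receptors and dampens their signal, had its lowest level at GD124. It was at 55.6, 82.5, 76.5 and 53.2 CPM in GD100 replicates 1 to 4, at 35.8, 38.4, 41, 32 and 44.7 CPM at GD124, and at 51.3, 59 and 75.1 CPM in the lowest, median and highest library of GD144. The GD124 libraries lay below all others, while those of GD100 and GD144 overlapped. GRB10 fell by 0.80 on the log2 scale in the first interval (SE 0.15, edgeR adjusted p = 0.00123) and rose by log2 0.65 ± 0.14 in the second (edgeR adjusted p = 0.00265). Of all tested genes 0.595% were called with such a fall and rise, and the 2 intervals differed by 1.46 ± 0.26 (edgeR adjusted p = 0.00745). GD144 against GD100 gave log2 -0.15 ± 0.15 (edgeR adjusted p = 0.408). With replicate 1 alone for GD100, the first change was -0.54 and was not called (edgeR adjusted p = 0.0786). Within GD100, the higher GRB10 values came from replicates 2 and 3, those with the higher erythroid sums. From GD124 to GD144 the median erythroid sum went from 2130 to 151.6 CPM, while GRB10 rose. The part of cell makeup in these values was not tested.

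CDKN1C, which encodes the cyclin-dependent kinase inhibitor p57, was at 143, 74, 95.8 and 159 CPM in GD100 replicates 1 to 4. It was at 155, 154, 123, 138 and 119.9 CPM at GD124 and at 107, 112 and 154 CPM in the lowest, median and highest library of GD144. Its values overlapped between all stages, and the log2 changes were 0.23 ± 0.20, -0.18 ± 0.18 and 0.04 ± 0.19 for GD124 against GD100, GD144 against GD124 and GD144 against GD100. The edgeR adjusted p was 0.401, 0.488 and 0.864 in that order, which does not show that the stages were alike. Over the settings other than leaving out 1 library, the first of these changes ranged from -0.05 to 0.30. At GD100, replicates 1 and 4, with the higher hepatocyte sums, held the higher CDKN1C values.

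MEST, which encodes an enzyme-like protein of the alpha/beta hydrolase fold, was at 347, 210.4, 215 and 409 CPM in GD100 replicates 1 to 4 and at 484, 576, 325, 390.2 and 379 CPM at GD124. At GD144 the lowest, median and highest libraries were at 78.5, 125 and 157 CPM, below every library of the earlier stages. The first change did not pass (log2 0.54 ± 0.26, edgeR adjusted p = 0.114), but it did without GD100 replicate 4 (log2 0.72, edgeR adjusted p = 0.0456). MEST then fell 3.63-fold between GD124 and GD144 (log2 -1.86 ± 0.23, edgeR adjusted p = 4.2e-05) and 2.49-fold over the whole span (edgeR adjusted p = 0.000229). The later change minus the earlier one was -2.40 ± 0.41 (edgeR adjusted p = 0.00554). MEST overlaps COPG2, a coat protein subunit gene, in the annotation, and its counts in GD100 replicates 2 to 4 were fractional. COPG2 was at 9.65 ± 1.2 CPM (SD, n = 4), 11 ± 1.75 CPM (n = 5) and 8.45 ± 1.24 CPM (n = 6), and passed no test. The log2 ratio of MEST to COPG2 counts, which does not depend on library scaling, was 4.88 ± 0.52 (SD, n = 4) at GD100, 5.27 ± 0.47 (n = 5) at GD124 and 3.77 ± 0.38 (n = 6) at GD144. The difference of GD144 from GD124 was -1.5, with all GD144 libraries lower (exact two-sided permutation p = 0.00216, the smallest that 462 arrangements allow, adjusted p = 0.013 over 6 tests). That from GD100 was -1.11, again with all GD144 libraries lower (exact two-sided permutation p = 0.00476, the smallest that 210 arrangements allow, adjusted p = 0.0143).

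PEG10 and SGCE lie next to each other in the annotation and are known to be read in opposite directions from 1 imprinted region. PEG10 derives from a retrotransposon and acts in placenta, and SGCE encodes epsilon-sarcoglycan, a membrane protein of the sarcoglycan family. SGCE was at 45.3, 46, 45.5 and 108 CPM in GD100 replicates 1 to 4, at 157, 192, 194, 191 and 151 CPM at GD124, and at 52.5, 73.4 and 136 CPM in the lowest, median and highest library of GD144. All GD124 libraries lay above those of both other stages. SGCE rose by log2 1.53 ± 0.32 (edgeR adjusted p = 0.0024) and fell by 1.06 on the log2 scale (SE 0.28, edgeR adjusted p = 0.0107), a course called for 1.13% of all genes. The 2 intervals differed by -2.59 ± 0.50 (edgeR adjusted p = 0.00984). GD144 against GD100 gave log2 0.47 ± 0.30 (edgeR adjusted p = 0.199), and log2 0.91 (edgeR adjusted p = 0.0112) without GD100 replicate 4, the library at 108 CPM.

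PEG10 varied widely within stages. It was at 28.3, 139.9, 76.3 and 129 CPM in GD100 replicates 1 to 4 and at 398, 303, 704, 179 and 324 CPM at GD124. At GD144 it ran from 129 through a median of 163 to 654 CPM. The coefficient of variation was 55.1, 51.6 and 77.9% at the 3 stages, against 51.1, 11.8 and 41.8% for SGCE. All GD124 libraries lay above those of GD100, and the rise was 4.09-fold (log2 2.03 ± 0.61, edgeR adjusted p = 0.0192). Without GD100 replicate 3 it was log2 1.93 with an edgeR adjusted p of 0.0607, and with replicate 1 alone for GD100 it was log2 3.75 (adjusted p = 0.0638). GD124 and GD144 were not shown to differ (log2 -0.45 ± 0.51, edgeR adjusted p = 0.559). GD144 was higher than GD100 by log2 1.58 ± 0.58 (edgeR adjusted p = 0.0323). That call was lost without GD100 replicate 1 or 3 (adjusted p = 0.0793 and 0.078), without GD144 replicate 1 or 2 (adjusted p = 0.0742 and 0.0611) and with replicate 1 alone for GD100 (log2 3.31, adjusted p = 0.0506). Scaling by total counts alone (adjusted p = 0.0515) and a fit of only these stages (adjusted p = 0.0534) lost it too. The log2 ratio of PEG10 to SGCE counts was 0.48 ± 0.95 (SD, n = 4), 0.97 ± 0.74 (n = 5) and 1.5 ± 0.57 (n = 6), and no pair of stages was shown to differ (exact two-sided permutation p = 0.405, 0.229 and 0.0667 for GD124 against GD100, GD144 against GD124 and GD144 against GD100, adjusted p = 0.405, 0.343 and 0.133). Without GD100 replicate 2 the last of these passed, with a difference of 1.39 (adjusted p = 0.0476).

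The order of the libraries within a stage was shared by some of the 8 genes, but of the 28 Pearson correlations between their deviations from the stage means none passed after adjustment (9 had a permutation p under 0.05, lowest adjusted p = 0.0615). At GD144, replicates 1 and 2 were the 2 highest of the 6 libraries for PEG3, PEG10, SGCE, CDKN1C and MEST. PEG3 was at 1847 and 2428 CPM there, against 512 to 1090.4 CPM in the other GD144 libraries, and PEG10 at 654 and 434 CPM against 129 to 168 CPM. SGCE was at 122 and 136 CPM against 52.5 to 78.3 CPM. The erythroid sums of these 2 libraries, 153.6 and 149.6 CPM, lay within the range of the other GD144 libraries, 106.9 to 850.5 CPM. Their stellate and mesenchyme sums were 2511 and 1934 CPM, against 1567 to 2440 CPM in the other GD144 libraries. Their hepatocyte sums were 99289 and 129620.0 CPM, against 125330 to 141060.0 CPM in the others. Replicate 1 thus had the highest stellate and mesenchyme sum and the lowest hepatocyte sum of its stage. DLK1, GRB10 and PLAGL1 had other libraries on top at GD144, which were replicates 5 and 6, replicates 4 and 6, and replicates 3 and 4. At GD100, replicates 2 and 3 were the 2 highest for PLAGL1, DLK1 and GRB10, and replicates 1 and 4 for MEST, PEG3 and CDKN1C. The former have the higher erythroid sums and the latter the higher hepatocyte sums, and the part of cell makeup in these values was not tested.

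**Figure D3:**
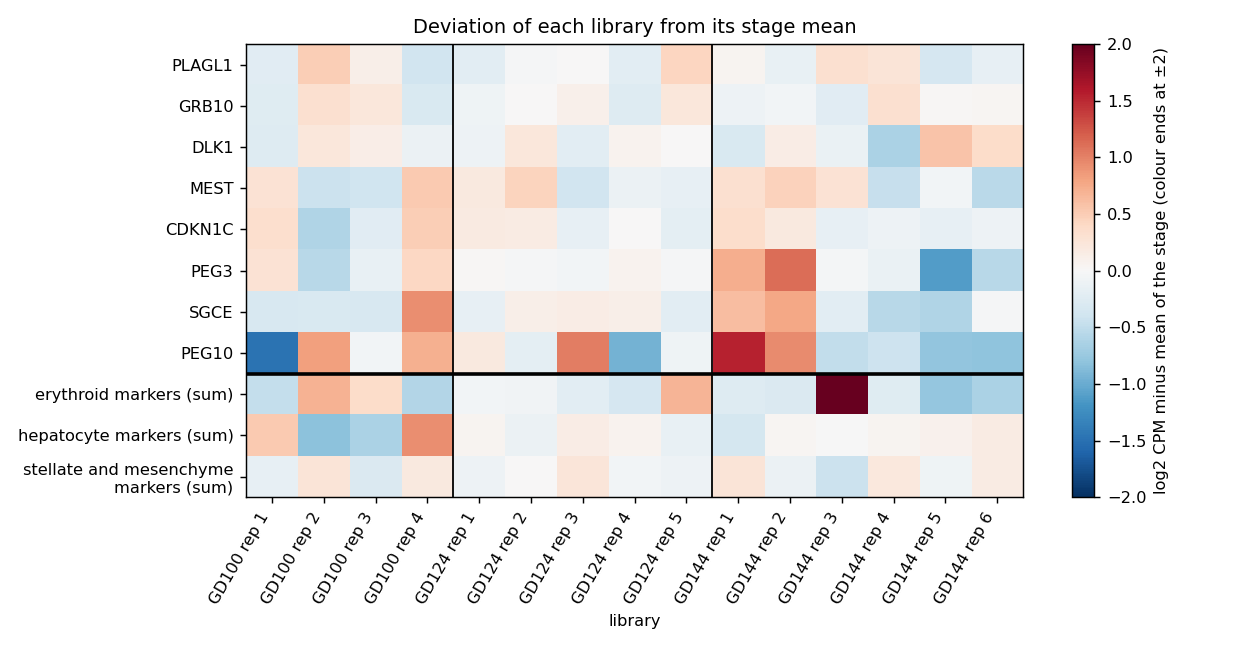
Deviation of each library (columns, by stage) from the mean of its stage on the log2 CPM scale, for the 8 genes and, under the thick line, for the summed levels of 3 marker lists. Red is above and blue below the stage mean, and the colour ends at a deviation of 2. PEG3, SGCE and PEG10 were above the stage mean in GD144 replicates 1 and 2, and in GD100 the erythroid and hepatocyte sums deviated in opposite directions.

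Neighbouring genes were read beside the members, since imprinted genes lie in clusters. For each member these were the nearest 2 tested protein-coding genes on each side in the ARS-UI_Ramb_v3.0 annotation, which gave 28 genes that are not members. In the first interval 4 of them were called higher and 6 lower, in the second 1 higher and 12 lower, and over the whole span 3 higher and 15 lower. Of all tested genes 16.6, 12.1 and 27.1% were called higher and 17.4, 15.4 and 27.9% lower, so that the 10 of 28 called in the first interval lay near the 34% of all genes. Around PEG10 and SGCE, CASD1, a sialic acid acetyltransferase gene, rose by log2 0.95 ± 0.19 and then fell by 0.54 on the log2 scale (edgeR adjusted p = 0.00147 and 0.0218). PPP1R9A, the gene of an actin-binding protein called neurabin, did the same (log2 1.06 ± 0.34 and -1.55 ± 0.30, edgeR adjusted p = 0.0261 and 0.00148), so that CASD1, SGCE and PPP1R9A were each called higher and then lower. The other neighbours did not take this course. COL1A2, a collagen gene on the far side of CASD1, passed in neither interval (log2 0.56 ± 0.23 and 0.26 ± 0.21) and was called higher over the whole span (log2 0.82 ± 0.23, edgeR adjusted p = 0.00571). LOC101115117, which lies between PEG10 and PPP1R9A in this order, passed in neither interval (log2 -0.96 and -0.23) and was called lower over the whole span (log2 -1.19, edgeR adjusted p = 0.0456).

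All 4 neighbours of PEG3 fell, as it did, between GD124 and GD144. In the first interval their log2 changes were -0.32 to 0.44, with unadjusted p from 0.368 to 0.913, and none was called by edgeR. LOC121816006 went from 355 ± 71.6 CPM (SD, n = 5) to 56 ± 30.9 CPM (n = 6), and LOC121816448, LOC132657795 and LOC105602023 fell by 2.35, 2.07 and 2.44 on the log2 scale. Next to DLK1, RTL1, a retrotransposon-derived imprinted gene, was called lower in both intervals at very low levels. It averaged 0.999 CPM at GD100 and 0.0744 CPM at GD144, where each library held 1 to 5 counts, so no fold change is given. LOC105606646, which overlaps RTL1 in the annotation, also fell in both intervals (47.7 ± 15.1, 26 ± 2.88 and 16.1 ± 4.47 CPM). On the other side, WDR25 fell in the first interval (log2 -1.11 ± 0.32) but was not called in the second (log2 -0.66 ± 0.30), and BEGAIN was called in neither (log2 -0.88 and 0.65). Other neighbourhoods were mixed. Next to CDKN1C, SLC22A18, a transporter gene, and KCNQ1, a potassium channel gene, rose in the first interval (log2 0.78 ± 0.22 and 0.90 ± 0.29), while TSSC4 fell (log2 -0.81 ± 0.20) and PHLDA2 was not called (log2 -0.67 ± 0.42). DDC, the aromatic amino acid decarboxylase gene beside GRB10, fell in the second interval, in which GRB10 rose (log2 -1.56 ± 0.18, edgeR adjusted p = 2.51e-05). FIGNL1, the next gene after it, fell in both intervals (log2 -1.15 ± 0.25 and -0.89 ± 0.23), and COBL and LOC114112048 were called in neither. Beside MEST, CEP41 fell in the second interval as MEST did (log2 -0.68 ± 0.10, edgeR adjusted p = 0.000188), and CPA1 and KLF14, like COPG2, were called in neither. Beside PLAGL1, SF3B5, a splicing factor gene, fell in both intervals (log2 -0.92 ± 0.19 and -0.87 ± 0.17), by less than PLAGL1 in its point estimates, and the difference between the 2 genes was not tested. LTV1, a ribosome assembly factor gene, rose in the second interval, in which PLAGL1 fell (log2 0.82 ± 0.22, edgeR adjusted p = 0.0112), and ZC2HC1B and STX11 were called in neither.

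**Figure D4:**
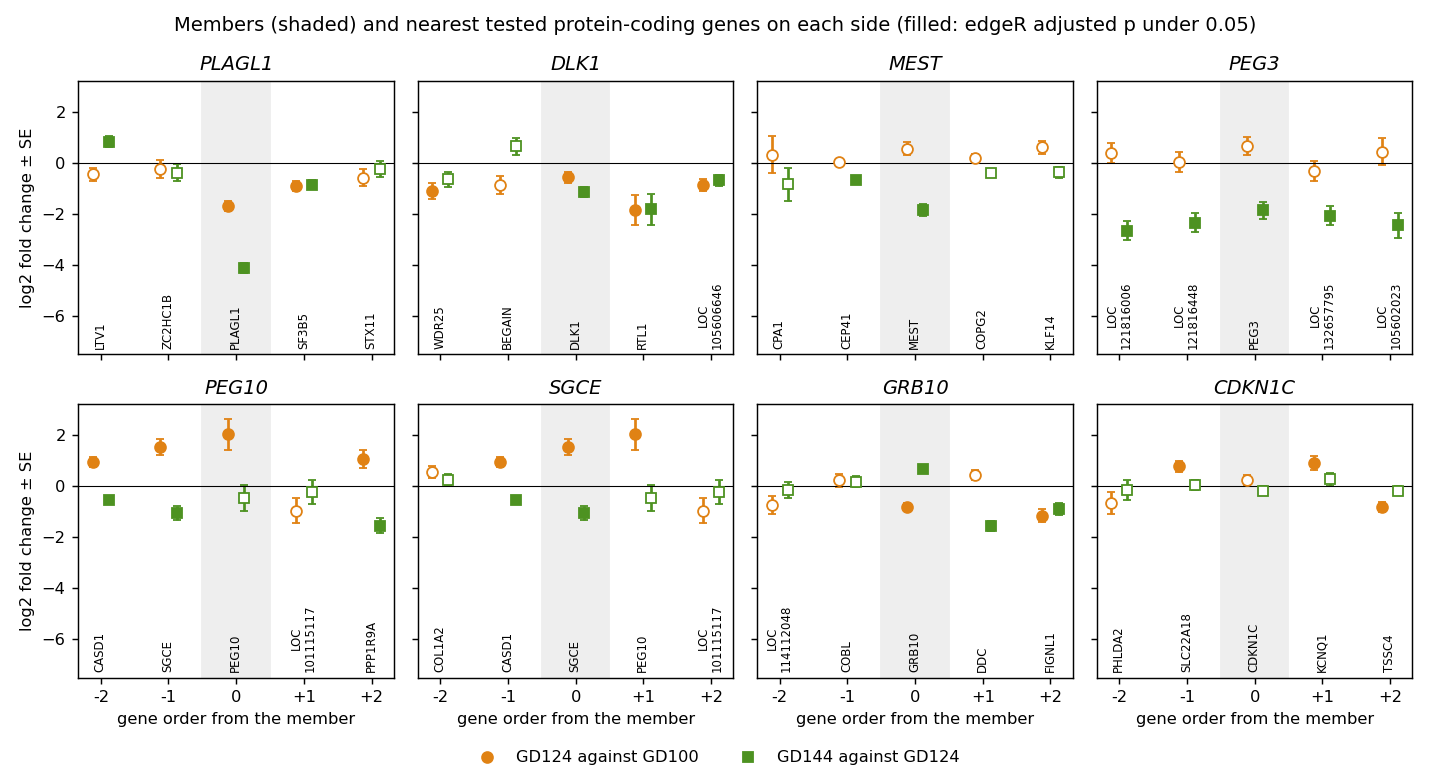
Log2 fold change with standard error of each member (shaded) and of the 2 nearest tested protein-coding genes on each side, in the order of the annotation, for both intervals. Filled symbols passed an edgeR adjusted p of 0.05. All genes around PEG3 were lower at GD144 than at GD124, with changes of -1.86 for PEG3 and -2.66 to -2.07 for its neighbours.

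A wider list of 32 other genes reported as imprinted in mouse, human or ruminants had 26 members in the table, 23 of which were tested. In the first interval 9 were called higher and 4 lower, in the second 1 higher and 9 lower, and over the whole span 9 higher and 7 lower. The first count, 13 in all, was 6 without GD100 replicate 2 and 7 without GD100 replicate 3. Over all tested genes 4423 and 4169 were called in these fits, against 5773 with all 15 libraries. The median log2 change of the 23 genes was 0.25, -0.27 and 0.26 in these comparisons. As background, 16.6, 12.1 and 27.1% of all tested genes were called higher and 17.4, 15.4 and 27.9% lower.

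IGF2, the main fetal growth factor of the imprinted genes, rose over the whole span from 4975 ± 1413 CPM (SD, n = 4) to 9868 ± 2446 CPM (n = 6), with log2 0.99 ± 0.24 and an edgeR adjusted p of 0.0024. SLC38A4, an amino acid transporter gene, rose from 167 ± 67.9 to 453 ± 76.5 CPM in the first interval and was at 307 ± 54.2 CPM at GD144 (edgeR adjusted p = 0.069 for the second interval). SLC22A18 and KCNQ1 rose over the whole span by log2 0.85 ± 0.21 and 1.17 ± 0.28, and TFPI2, a protease inhibitor gene, by log2 1.28 ± 0.30. NNAT, which encodes the membrane proteolipid neuronatin, lay at 4922 ± 2628, 8570.3 ± 1384 and 2642 ± 778 CPM and fell in the second interval (log2 -1.70 ± 0.30, edgeR adjusted p = 0.000588). BLCAP, which overlaps NNAT in the annotation, fell in the same interval (log2 -0.94 ± 0.23). ZIM2, a zinc finger gene that belongs to the PEG3 cluster in human, stood at 3.18 ± 1.21 and 3.24 ± 1.02 CPM at GD100 and GD124 and at 0.407 ± 0.29 CPM at GD144 (log2 -3.00 ± 0.44, edgeR adjusted p = 0.00015). TSPAN32, a tetraspanin gene known from blood cells, fell from 34.6 ± 13.4 through 6.62 ± 3.23 to 1.97 ± 1.79 CPM, and ASCL2, which overlaps it, from 23.7 ± 7.92 through 10.2 ± 4.8 to 2.49 ± 0.862 CPM. L3MBTL1, a chromatin protein gene, fell from 11.2 ± 2.73 to 1.96 ± 0.705 CPM over the whole span. SNRPN, GNAS, IGF2R, NDN, PPP1R9A, UBE3A and MAGEL2 were also called in at least 1 comparison. RTL1, NNAT, BLCAP, TSPAN32, ASCL2, TFPI2, SLC38A4 and PPP1R9A overlap other genes in the annotation, as PLAGL1, MEST and COPG2 do and, among the other genes named here, WDR25, CEP41, COBL, STX11, LOC105606646, LOC132657795, LOC105602023, LOC101115117, AFP, GPC3, SGCB, RTL9, GRB14 and IGFBP1. SNRPN, GNAS, UBE3A, RTL5, CDH1, MET and LIN28B overlap other genes as well, and these lists may not be complete. How reads in such overlaps were shared out is not known here, so the values of these genes are uncertain.

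**Figure D5:**
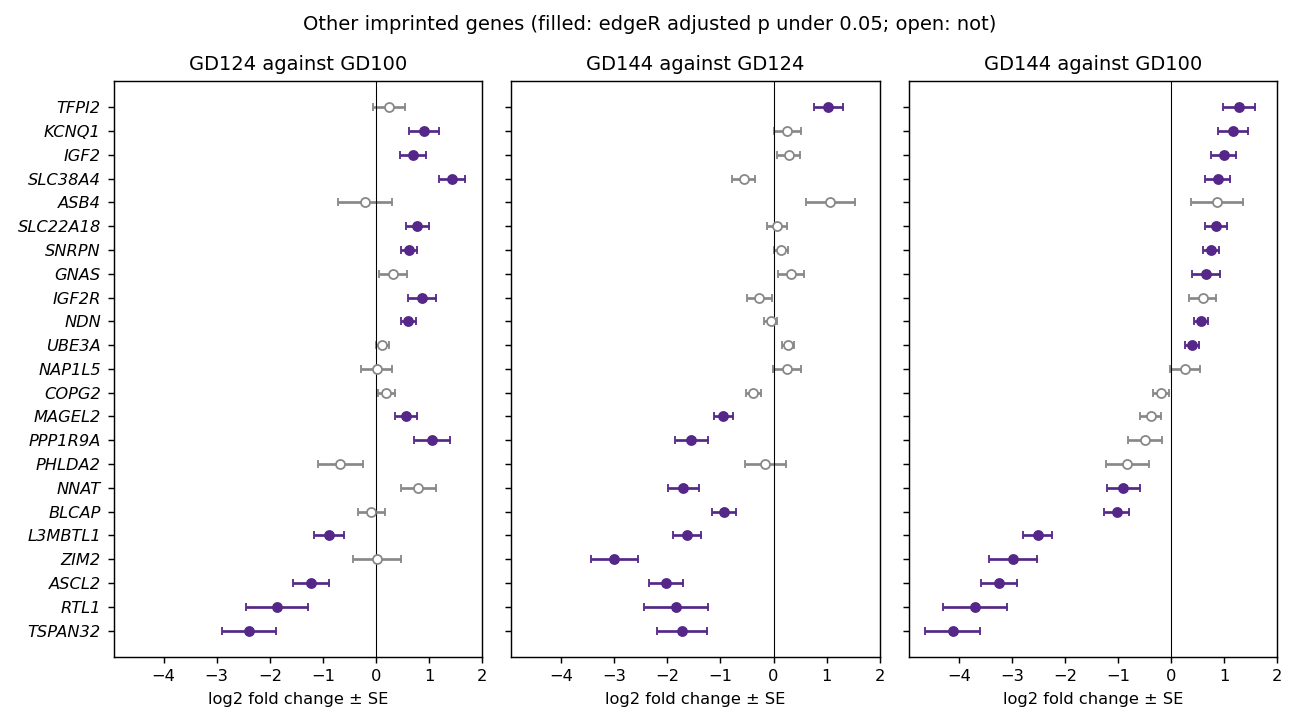
Log2 fold change with standard error of the 23 tested imprinted genes outside the main 8, ordered by their change from GD100 to GD144. Filled points passed an edgeR adjusted p of 0.05. In the middle panel TFPI2 was the only filled point above 0 and 9 genes were filled below 0.

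Relatives of the 8 genes by protein family were read from a fixed list. CDKN1A, a kinase inhibitor gene of the CDKN1C family, rose from 5.6 ± 2.21 through 15.3 ± 6.8 to 50.7 ± 22 CPM, and was called higher in each comparison. CDKN1B, the third of that family, stood at 71.3 ± 22.1, 43.8 ± 5.88 and 33.5 ± 2.98 CPM and was called lower in the first interval and over the whole span. Over the whole span their log2 changes were 3.18 ± 0.42 and -1.09 ± 0.16, against 0.04 ± 0.19 for CDKN1C. PLAGL2, a zinc finger relative of PLAGL1, fell over the whole span by 1.49 on the log2 scale (SE 0.20, edgeR adjusted p = 1.06e-05), where PLAGL1 fell by 5.82. SGCB, the beta-sarcoglycan gene, rose in both intervals (log2 0.65 ± 0.14 and 0.74 ± 0.13), and SGCE fell in the second. RTL9, a relative of PEG10 from the retrotransposon-derived family, rose and then fell, at 2.36 ± 0.788, 4.1 ± 1.35 and 1.11 ± 0.237 CPM. DLL4, a Notch ligand gene of the Delta family, rose only in the second interval by the test (log2 1.45 ± 0.27), while DLK1 fell. GRB14, the relative of GRB10, was at 0.669 ± 0.168, 0.488 ± 0.257 and 1.39 ± 0.874 CPM and was called higher in the second interval alone (edgeR adjusted p = 0.0287). Of the 20 tested relatives in all, 6 rose and 3 fell in the first interval, 4 rose and 3 fell in the second, and 6 rose and 5 fell over the whole span. These 9, 7 and 11 genes of 20 stand beside 34, 27.5 and 55% of all tested genes, shares near those of the list. RTL1, described above, was counted among the relatives too. Differences between a member and its relative were not tested.

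Genes of the insulin-like growth factor and insulin pathway, on which GRB10 acts, were read from a list of 20, all tested, which also held IGF2, IGF2R and GRB14. Of these 11 rose and 2 fell in the first interval, 6 rose and 14 were not called in the second, and 12 rose and 2 fell over the whole span, with median log2 changes of 0.49, 0.30 and 0.97, against 0.015, -0.0098 and 0.03 for all tested genes. Of all genes 16.6, 12.1 and 27.1% were called higher and 17.4, 15.4 and 27.9% lower. Of 12 hepatocyte markers 8, 3 and 9 were called higher in the same comparisons, and 0, 1 and 0 lower. The part of hepatocyte content in the pathway's values was not tested. GHR, the growth hormone receptor gene, went from 35.5 ± 13.9 to 176 ± 14.9 CPM and IRS1, an adaptor of the insulin receptor, from 35.3 ± 8.83 to 77.5 ± 11.2 CPM between GD100 and GD144. IGF1 went from 89.1 ± 28.3 to 256 ± 34.4 CPM and the binding protein genes IGFBP1 and IGFBP4 from 17.3 ± 16.4 to 357 ± 199.7 CPM and from 510.1 ± 142 to 1600.2 ± 143 CPM. IGFBP2 and IGFBP5 rose over the same span by log2 1.41 ± 0.35 and 1.83 ± 0.37.

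The genes whose levels ran most like each member were listed by Pearson correlation of log2 CPM over the 15 libraries, among 8203 named genes with a mean of at least 10 CPM. The 15 points share the stages, so these values describe a common course over the libraries, between stages and within them, and no more. CDKN1C was not called for any difference between stages (edgeR adjusted p = 0.531), so its values are not read as a course over gestation. For PLAGL1 they were LIN54, SLC2A1 and OSM (r = 0.99 for each), of which SLC2A1, the glucose transporter gene of red cells and fetal tissues, was at 724, 184 and 18.7 CPM in the stage means. For DLK1 they were AP5S1, NMNAT3 and CISD2 (r = 0.95), for MEST CUL4B, FOXA2 and GNAI1 (r = 0.98, 0.95 and 0.95) and for PEG3 IGDCC4, NEBL and CDH16 (r = 0.95, 0.94 and 0.94). FOXA2, a liver transcription factor gene, was at 15.1, 16.4 and 3.4 CPM. For SGCE they were DNAAF9, SAAL1 and RTL5 (r = 0.97, 0.97 and 0.96), and RTL5, another retrotransposon-derived gene, was at 295, 539 and 371 CPM. For PEG10 they were PDCD4, ZNF512B and COMMD2 (r = 0.92, 0.90 and 0.90), for GRB10 NOL9, FKBP5 and CENPU (r = 0.90, 0.89 and 0.89) and for CDKN1C SMOC1, MTSS1 and SIDT1 (r = 0.90, 0.89 and 0.89).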

How the data were processed

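RNA from fetal sheep liver was sequenced by the authors as 15 paired-end poly(A) libraries, per the labels' protocols, and the deposited table holds estimated counts per gene and library, not normalised. DRAGEN is named per the submitters' processing notes. Which version, build and annotation were used, and whether strand counted, is not given in the sources used here. Rounding to whole numbers changed 6.55% of values. Each of the 15 columns belonged to 1 library, and no replicate pair came near 1 library deposited again (lowest chi-square per degree of freedom 46.7, over genes with a mean of at least 20 counts).

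The main test was glmQLFTest in edgeR 4.0.16 (R 4.3.3, TMM factors, filterByExpr, robust estimation), fitted jointly to the 15 libraries by stage and adjusted by Benjamini-Hochberg over all 16977 genes at a threshold of 0.05. Each standard error is the absolute log2 change over the square root of F. The procedure was tested on simulated data. Count ratios used a prior of 0.5 and exact permutation tests, adjusted over 6 tests. The ratio of DLK1 to MEG3 was not analysed here. Gene order and overlaps came from the RefSeq table of ARS-UI_Ramb_v3.0, without coordinates, since the build of the counts is not known. Alternatives were other scalings, filters, tools (DESeq2 1.42.0, limma-voom 3.58.1), a fit of only the stages compared, a replicate block, replicate 1 alone for GD100 and each library left out. The text names all 8 members, their neighbours, called list genes by size of change over the whole span (up to 12 of the imprinted list and 8 of each other list) and the 3 genes most like each member. The members and lists were chosen with earlier results of these data known.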

Additional observations from a re-analysis of the deposited data

Results flagged for a closer look

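SGCE in GD100 replicate 4 stood at 108.3 CPM, far above the other GD100 libraries, of which the nearest was at 46 CPM. It was the only 1 of 24 combinations of gene and stage in which a library stood apart by Dixon's criterion, and chance alone gives about 1 in 20.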

How the results depend on the processing

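The first interval depended most on single libraries. The 5 members called for GD124 against GD100 were 3 to 6 with 1 library left out and 2 with replicate 1 alone for GD100, and the 13 other imprinted genes called were 6 to 14 and 4. In that last fit, which takes the spread of GD100 from the other stages, 3167 genes were called in all, against 5773. No direction of a called member change reversed under any of the alternatives applied to the members. Among the changes of members, 23 results under an alternative lost a call and 2 gained one, and for DLK1 and PEG10 this happened 10 and 11 times. The PEG10 to SGCE log2 ratio for GD144 against GD100 ran from 0.63 to 1.39 with 1 library left out and passed without GD100 replicate 2 (exact permutation, adjusted p = 0.0476). With total counts as the only scaling, the median over genes for GD124 against GD100 was -0.163 on the log2 scale, against 0.015, and 30.9% of calls were higher, against 48.9%. For GD144 against GD124 54.1% were higher, against 43.9%. Same-numbered libraries of different stages did not deviate together (correlations of -0.155 to 0.144, against -0.171 to 0.181 for other numbers). A library correlated best with its own number in 3 of 26 cases. The replicate block called 7 of the other imprinted genes in the first interval and 4544 of all genes, against 5773 without the block. PEG10 lost its calls with the block (edgeR adjusted p = 0.055 and 0.0729).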

Other observations

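The 28 pairs of the 8 genes were compared in how their libraries deviated from the stage means on the log2 CPM scale, over 15 libraries, a comparison added after the data were seen. PEG3 and CDKN1C deviated together (Pearson r = 0.67, permutation p = 0.00306, adjusted p = 0.0615, Spearman rho = 0.82, permutation p = 0.00203, adjusted p = 0.0568), and so did MEST and CDKN1C (r = 0.77, permutation p = 0.00439, adjusted p = 0.0615, rho = 0.71, permutation p = 0.0192, adjusted p = 0.108). Without the 2 libraries in which the first-named gene, PEG3 or MEST, lay farthest from its median deviation, the r was 0.82 and 0.71. The values of CDKN1C had no part in choosing these libraries. MEST and GRB10 deviated in opposite directions (r = -0.73, permutation p = 0.0142, adjusted p = 0.0994, rho = -0.74, permutation p = 0.00943, adjusted p = 0.088, r = -0.70 without 2 libraries chosen by MEST in the same way). Of the 28 pairs 9 had a permutation p under 0.05 and 0 passed after adjustment, so these relations are reported as not established.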
